A study of Homo sapiens with 6 samples.

Results

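The mRNAs of 48 splicing and RNA-processing proteins were followed in a pull-down of CyCoNP (LINC02381), a long noncoding RNA. They are the protein-coding genes of the deposited count table whose GENCODE symbol starts with HNRNP, is SRSF followed by digits, or is PTBP1 to PTBP3, TRA2A, TRA2B or ELAVL1 to ELAVL4. Of the 60676 entries of the table these 48 comprised 27 hnRNP genes, 12 SR genes (SRSF), 3 PTB genes, 2 TRA2 genes and 4 ELAV genes. The cells were SK-N-BE, a human neuroblastoma line, kept for 1.5 days in differentiation medium with 10 µM retinoic acid. A cell extract was incubated with biotinylated antisense probes against CyCoNP (CyCoNP PD) or against LacZ, a bacterial sequence that served as control (LacZ PD), and the RNA held on streptavidin beads was sequenced as PCR-amplified cDNA on Nanopore flow cells beside a portion of the extract kept as input. Each of the 3 groups had 2 libraries, numbered replicate 1 and 2 and called biological duplicates by the study. The pull-down was native, without cross-linking, so RNA can be held through proteins or other RNAs, and the control cells were the same cells with another probe set. Dextran sulfate was added to both pull-downs and more PCR reactions were pooled for them than for input, so these steps and the probes cannot be told apart in a comparison of a pull-down with input.

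The hnRNP proteins coat nascent transcripts and often repress exons, whereas the SR proteins, named for their arginine and serine-rich domains, mostly promote the use of an exon. PTB and TRA2 proteins are further regulators of exon choice, with PTBP2 taking over from PTBP1 as progenitors become neurons, and the ELAV (Hu) proteins bind AU-rich sequences of mRNAs, with ELAVL2, ELAVL3 and ELAVL4 typical of neurons. Many of these genes control their own mRNA by alternative splicing. What was measured here is the amount of their mRNA in each library, not the protein and not its binding to CyCoNP.

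Sequencing depth was very uneven. It came to 717905 and 791970 counts for input, to 1512148 and 514882 counts for CyCoNP PD, and to no more than 18870 and 140115 counts for LacZ PD. The 48 genes took between 0.647% and 0.874% of the counts of a library. Values are given as normalised CPM, which are CPM after TMM scaling, for replicate 1 and then replicate 2. A gene needed 159 CPM, before that scaling, to reach 3 counts in LacZ PD 1 and 21.4 CPM in LacZ PD 2, and only 14 and 36 of the 48 genes had that level in input. Such limits and all intervals cover counting error only, since the cDNA was amplified by PCR and carried no molecular identifiers. All 13 markers of sympathoadrenal neuroblastoma looked for were detected in input, and the blood markers PTPRC, CD3E and LYZ were at 0 in all libraries. CyCoNP itself, the targeted RNA, had 20 and 39 counts in input, 1 and 20 with LacZ probes and 11687 and 3507 with CyCoNP probes, a log2 fold change of 7.59 ± 0.96 (SE, n = 2 per group, edgeR adjusted p = 0.0137) of CyCoNP PD over input. Against LacZ PD its log2 fold change was 6.39 ± 0.93 (SE), which edgeR did not call (adjusted p = 0.0785).

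The longest matches of the probes to these mRNAs were about as long as those to all genes tested. All 22 CyCoNP probes, of 20 bases each, match transcripts of CyCoNP along their whole length, whereas the longest exact complementary stretch between a probe and a transcript of the 42 genes tested ranged from 8 to 13 bases, with a median of 10. Over all 12528 tested genes with a GENCODE transcript the median was also 10. A stretch of 12 bases or more was found for 5 of the 42 genes (11.9%, against 10.1% of all genes), namely HNRNPL, PTBP1, PTBP3, SRSF9 and ELAVL1, and none of the 42 had 14 bases, against 0.479% of all genes. Of the probes, 4 are given here with their sites, chosen as the longest matches in the principal transcripts of PTBP3, SRSF9 and ELAVL1, together with that of HNRNPA1. Of the 42 genes, HNRNPA1 had the highest fold change in CyCoNP PD against input. Capitals mark the complementary bases, probes and sites are both written 5′ to 3′, and transcripts and coordinates are those of GENCODE v44 on GRCh38.
CyCoNP probe 18: tggcctTGGTGTGATAAGAa
PTBP3 site, coding sequence across an exon junction: cctgaTCTTATCACACCAcatgg
CyCoNP probe 7: TAATCAGGGGTGttctgctc
SRSF9 site, 3′ untranslated region: tttttCACCCCTGATTAtggga
CyCoNP probe 12: cccaaCATGGGGGAGAAaaa
ELAVL1 site, coding sequence: tcaggTTCTCCCCCATGggcgt
CyCoNP probe 8: ctCACCAAGGTctggaacaa
HNRNPA1 site, 3′ untranslated region: cggaaACCTTGGTGtagtt
The PTBP3 stretch of 13 bases lies on the minus strand within chr9:112231402-112232099, in 2 exons. The SRSF9 stretch of 12 bases is at chr12:120461782-120461793 and the ELAVL1 stretch of 12 bases at chr19:7963795-7963806, both on the minus strand. The HNRNPA1 stretch in this transcript was only 9 bases, at chr12:54285027-54285035 on the plus strand. Across the 42 genes the length of the longest stretch had a Spearman correlation of 0.109 with the log2 fold change of CyCoNP PD over input, a description across genes that share libraries.

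The first question was whether any of these mRNAs came down with the CyCoNP probes beyond its level in input. Of the 48 genes, 42 reached the minimum of 10 counts over the 6 libraries and were tested, 22 hnRNP, 12 SR, 3 PTB, 2 TRA2 and 3 ELAV. With edgeR's quasi-likelihood test and Benjamini-Hochberg adjustment over all 12565 genes tested, 0 of the 42 were enriched (adjusted p under 0.05 and log2 fold change above 1) in CyCoNP PD against input, against 0.119% of all genes, and 0 were depleted, against 0.00796%. At an unadjusted p under 0.05, 1 member was higher (HNRNPA1; 3.08% of all genes) and 1 was lower (HNRNPA0; 2.32% of all genes). DESeq2 also called 0 enriched and 0 depleted, against 0.462% and 0.111% of all genes. Blocked by replicate number, DESeq2 called 1 member enriched, HNRNPA1, and edgeR 0, against 0.692% and 1.53% of all genes. The fitted log2 fold changes of the 42 ran from -1.66 to 1.63 with a median of -0.22, beside a median of -0.01 over all genes tested. Without input replicate 1 the median of the members was 0.20.

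The LacZ probes asked the same of a probe set with no target in these cells. They are numbered 1 to 5 and have 19 or 20 bases, against 22 CyCoNP probes. Their longest stretch in the 42 genes had a median of 8.5 bases, against 10 for the CyCoNP probes. The 2 probe sets thus differed in more than their target. edgeR called 0 of the 42 genes enriched or depleted in LacZ PD against input, as it did for all genes tested (0% each). Unadjusted p-values under 0.05 were found for 0 higher and 6 lower genes, HNRNPA0, HNRNPU, HNRNPH1, SRSF8, TRA2B and ELAVL3, which is 14.3% of the 42 beside 6.28% of all genes. The median log2 fold change was -0.82 for the 42 genes and -0.68 for all genes tested, and without input replicate 1 that of the members was -0.17. Among the 2790 genes with a mean of at least 50 normalised CPM over the 6 libraries the median was -0.31, and among the 31 members at that level it was -0.97. Against these shifts DESeq2 called 0 of the 42 genes in either direction, where it called 0.0478% of all genes enriched and 0.422% depleted. Blocked by replicate number, edgeR and DESeq2 each called 1 member depleted, HNRNPA0, against 0.796% and 0.565% of all genes. In the third comparison, CyCoNP PD against LacZ PD, edgeR and DESeq2 called 0 of the 42 genes in either direction, where edgeR called 0% of all genes each way, the targeted RNA included, and DESeq2 called 0.287% of all genes enriched and 0.0159% depleted. With the replicate number as a block 0 of the 42 were called enriched in this comparison, beside 0.724% of all genes with edgeR and 0.414% with DESeq2. With edgeR, HNRNPA3, HNRNPU, TRA2B and ELAVL3 were higher at an unadjusted p under 0.05, 4 of 42 (9.52%) beside 4.74% of all genes, and 0 were lower. The median log2 fold change of CyCoNP PD over LacZ PD was 0.67 for the 42 genes and 0.64 for all genes tested, so most genes shifted the same way. Among the 2790 genes with at least 50 normalised CPM it was 0.34, and among the 31 members at that level 0.68. Both comparisons with input use the same 2 input libraries, and both comparisons with LacZ PD use the same 2 shallow LacZ PD libraries.

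**Figure D1:**
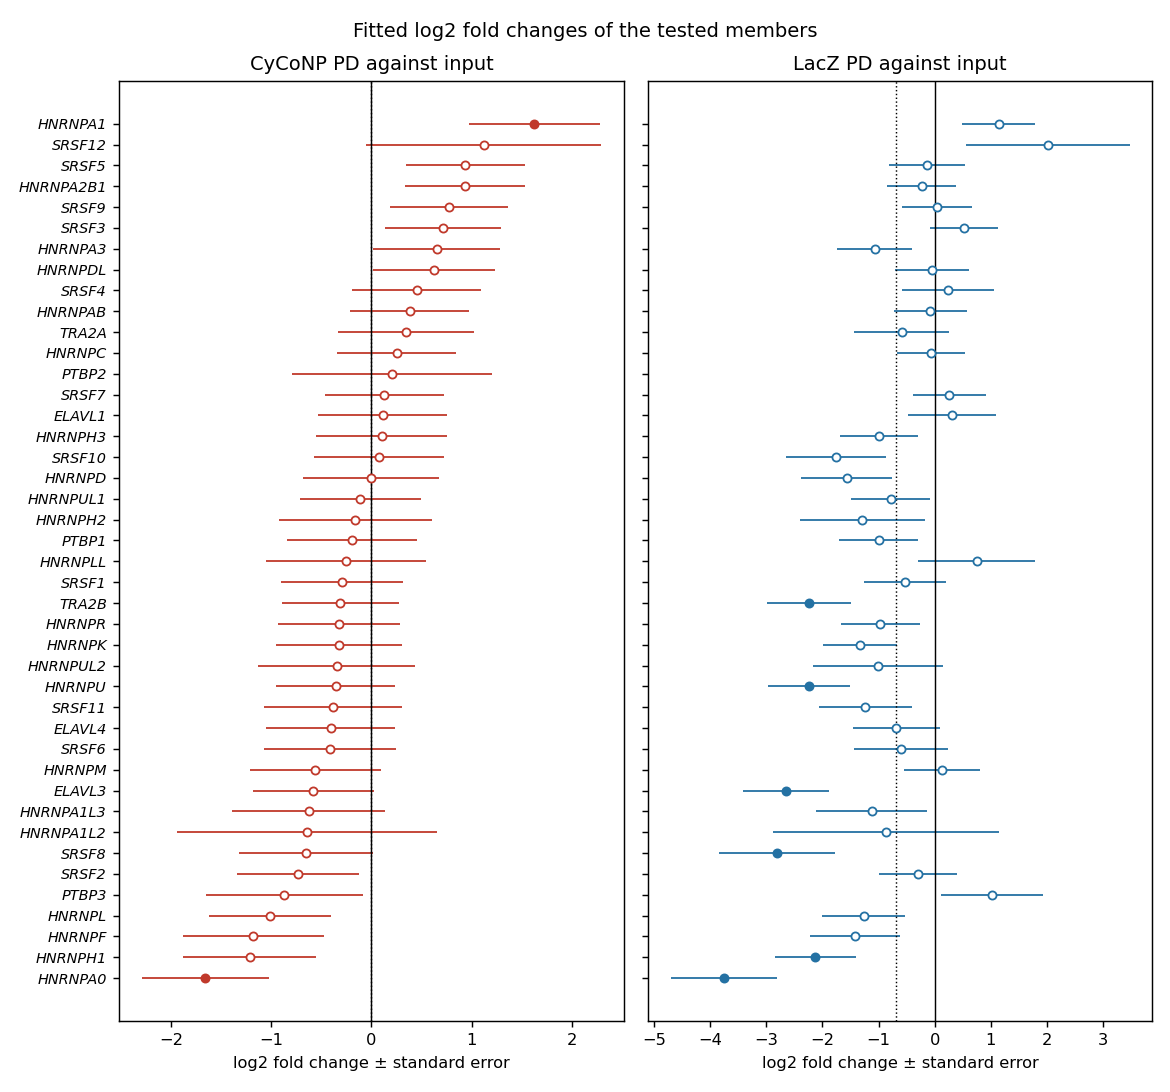
Fitted log2 fold change (points) and standard error (bars) of each tested gene in CyCoNP PD against input (left) and LacZ PD against input (right), ordered by the left panel; filled points have an unadjusted p under 0.05 and the dotted line is the median over all genes tested. PTBP2 is left out on the right because it had 0 counts in both LacZ PD libraries, and HNRNPA1 at 1.63 and HNRNPA0 at -1.66 are the ends of the left panel.

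HNRNPA1, which binds UAG-containing RNA and shuttles between nucleus and cytoplasm, had the highest fold change of the 42 genes in CyCoNP PD against input and was above input in all libraries of both probe sets. Its normalised CPM were 435 and 621 in input, 1559 and 1709 in CyCoNP PD and, with the LacZ probes, 758 and 1536. Every pull-down library lay above both input libraries. Before TMM scaling the pull-downs were closer still, with 1287 and 1490 CPM in CyCoNP PD, against 1272 and 1534 in LacZ PD, the last 2 resting on 24 and 215 counts with 95% Wilson intervals of 855 to 1892 and 1343 to 1754 CPM. The log2 fold change over input was 1.63 ± 0.65 (SE, n = 2 per group) with CyCoNP probes (edgeR adjusted p = 0.811) and 1.14 ± 0.65 with LacZ probes (edgeR adjusted p = 0.742), the latter 0.28 without LacZ PD replicate 2. With the replicate number as a block DESeq2 called it enriched in CyCoNP PD (1.58, adjusted p = 0.00663), the only member among the 0.692% of all genes so called, while edgeR with the block called 1.53% of all genes and did not call it (1.66, adjusted p = 0.151), and over all alternatives the adjusted p ran from 0.00663 to 1. Tested itself, the difference between the pull-downs was 0.49 ± 0.64 on the log2 scale (edgeR adjusted p = 0.880), and it was -0.03 when only the library totals were used for scaling, 0.10 without LacZ PD replicate 1 and 1.36 without LacZ PD replicate 2.

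**Figure D2:**
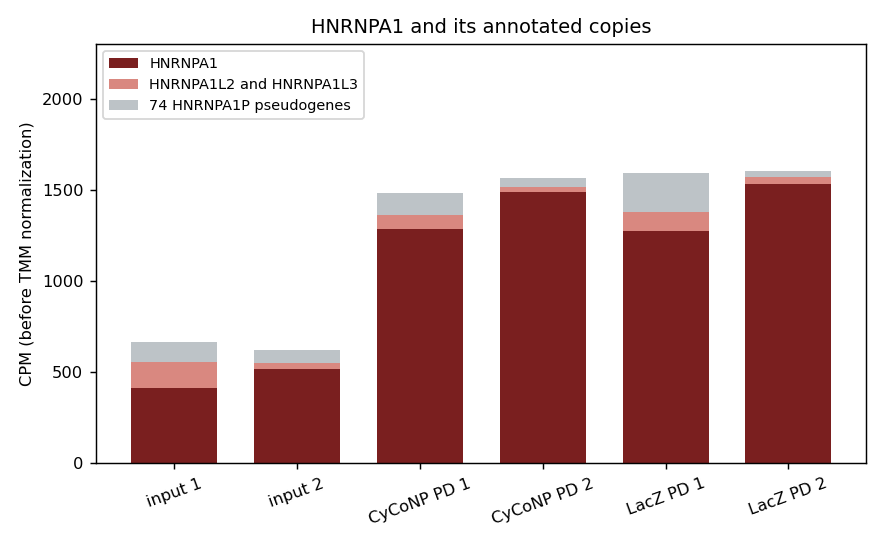
CPM before TMM scaling (vertical axis) of HNRNPA1, of its copies HNRNPA1L2 and HNRNPA1L3, and of 74 annotated HNRNPA1P pseudogenes, stacked for each of the 6 libraries. HNRNPA1 itself stands at 412 and 516 CPM in input and between 1272 and 1534 CPM in the 4 pull-down libraries.

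HNRNPA1 shares much of its sequence with many processed copies, and how reads were divided among them makes each of these counts uncertain. Of 74 annotated HNRNPA1P pseudogenes, 14 had counts. Their share of the pseudogene and HNRNPA1 counts together was 20.6% and 12.4% in input, 8.51% and 3.16% in CyCoNP PD and, with the LacZ probes, 14.3% and 2.27%. The share was lower in every replicate 2 than in the replicate 1 of its group. Summed with these pseudogenes, HNRNPA1L2 and HNRNPA1L3, a choice made after seeing the data, the normalised CPM were 702 and 746 in input, 1795 and 1794 in CyCoNP PD, against 948 and 1605 in LacZ PD. The order of the groups was as before, and the log2 fold change over input was 1.31 with CyCoNP probes (edgeR adjusted p = 0.957) and 0.83 with LacZ probes (edgeR adjusted p = 0.769). HNRNPA1L3, counted alone, differed more by replicate than by group, with 131 and 37.9 normalised CPM in input, 84.1 and 22.3 in CyCoNP PD and, with the LacZ probes, 63.2 and 28.6.

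HNRNPA1 is also a neighbour of the targeted RNA. On GRCh38 CyCoNP lies at chr12:54126019-54147485 and HNRNPA1 at chr12:54280193-54287088, both on the plus strand and 132708 bases apart. The only protein-coding gene annotated wholly between them is CBX5, which encodes a heterochromatin protein, on the minus strand. CBX5 had 390 and 243 counts in input, 502 and 134 in CyCoNP PD, against 4 and 31 in LacZ PD. Its log2 fold change over input was -0.43 with CyCoNP probes and -1.37 with LacZ probes, and edgeR called it in neither comparison (adjusted p = 1.00 and 0.718).

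The other A/B-type hnRNPs did not share one pattern. HNRNPA2B1, which takes part in splicing and mRNA transport, had 538 and 428 normalised CPM in input, 1046 and 798 in CyCoNP PD and, with the LacZ probes, 348 and 464. Both CyCoNP PD libraries lay above the other 4, and the log2 fold change was 0.93 ± 0.60 over input (edgeR adjusted p = 1.00) and 1.16 ± 0.62 over LacZ PD (edgeR adjusted p = 0.871). HNRNPA3, a relative of HNRNPA1, had 532 and 575 in input, 1158 and 579 in CyCoNP PD, against 158 and 343 in LacZ PD. CyCoNP PD 2 was at the level of input and CyCoNP PD 1 above it, and its LacZ PD libraries were the lowest. The difference between the pull-downs was 1.72 ± 0.68 (SE, edgeR unadjusted p = 0.0238, adjusted p = 0.871). It ran from 1.26 to 2.71 when each library was left out in turn. Over input the log2 fold change of CyCoNP PD was 0.65 ± 0.64 (SE) and ran from 0.085 to 1.06 in the same way. The 16 HNRNPA3P pseudogenes, 5 of them with counts, took between 4% and 26.6% of the counts of HNRNPA3 and its pseudogenes together.

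HNRNPA0, an intronless gene whose protein binds AU-rich mRNA, was the lowest of the 42 genes in CyCoNP PD against input. It had 111 and 124 counts in input, 64 and 27 in CyCoNP PD and, with the LacZ probes, 1 and 1, and its normalised CPM were 163 and 188 in input, 51.3 and 60.2 in CyCoNP PD, against 31.6 and 7.15 in LacZ PD. After TMM scaling the 3 groups did not overlap. Before it, LacZ PD 1 stood at 53.0 CPM (95% Wilson interval 9.36 to 300), above the 42.3 and 52.4 CPM of CyCoNP PD. At its pooled input level, LacZ PD 2 would have held 21.8 counts, and LacZ PD 1 only 2.94. The log2 fold change over input was -1.66 ± 0.63 in CyCoNP PD (edgeR unadjusted p = 0.0196, adjusted p = 0.762) and -3.76 ± 0.95 in LacZ PD (edgeR unadjusted p = 0.00135, adjusted p = 0.480). When each library was left out in turn, the LacZ PD value ran from -4.60 to -2.71. The pooled counts gave a LacZ PD to input ratio of 0.0808, with an exact 95% counting interval of 0.00973 to 0.295. With the replicate number as a block HNRNPA0 was depleted in LacZ PD with edgeR (-3.87, adjusted p = 0.0112) and with DESeq2 (-3.74, adjusted p = 0.0424), and over all alternatives the adjusted p ran from 0.0112 to 0.820. It was then 1 of 42 genes (2.38%), where 0.796% and 0.565% of all genes were called depleted.

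HNRNPH1 and HNRNPU were low in LacZ PD as well. HNRNPH1, which binds G-rich RNA, had 1008 and 373 normalised CPM in input, 344 and 250 in CyCoNP PD and, with the LacZ probes, 94.8 and 200. The groups did not overlap, but input 1 was far above input 2. Its log2 fold change over input was -1.22 ± 0.67 in CyCoNP PD (edgeR adjusted p = 1.00) and -2.13 ± 0.73 in LacZ PD (edgeR unadjusted p = 0.0110, adjusted p = 0.607). Without input replicate 1 these were -0.33 and -1.23, and leaving out other single libraries gave values down to -1.76 and -3.11. HNRNPU, a nuclear scaffold-attachment protein, had 250 and 172 in input, 182 and 147 in CyCoNP PD, against 31.6 and 50.02 in LacZ PD, the last from 1 and 7 counts. Input and CyCoNP PD overlapped and LacZ PD lay below both, with a log2 fold change of -2.24 ± 0.74 against input (edgeR unadjusted p = 0.00876, adjusted p = 0.607) and of 1.89 ± 0.74 for CyCoNP PD over LacZ PD (edgeR unadjusted p = 0.0225, adjusted p = 0.871). These values ran from -2.97 to -1.94 and from 1.73 to 2.63 when each library was left out in turn.

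**Figure D3:**
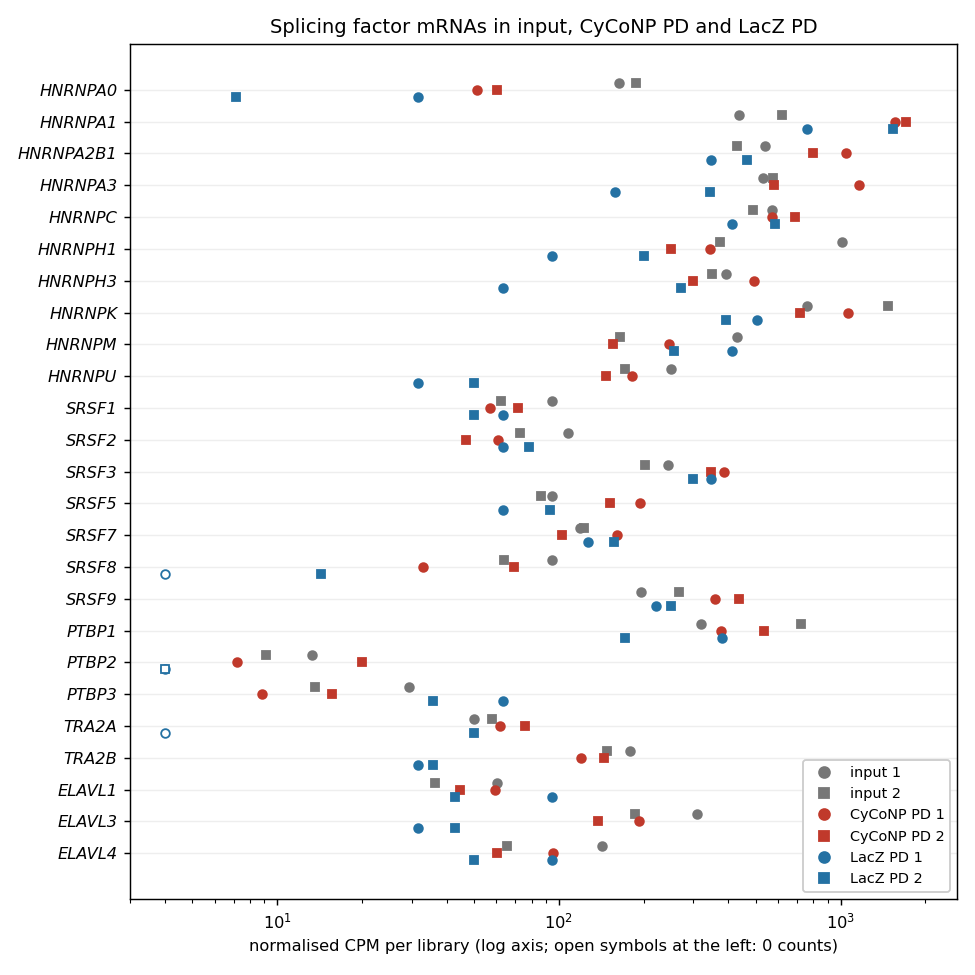
Normalised CPM on a log axis for 25 of the genes described, with 1 point for each library; circles are replicate 1, squares replicate 2, and open symbols at the left edge mark 0 counts. The 4 pull-down libraries of HNRNPA1 lie to the right of its input libraries, and the LacZ PD points of HNRNPA0, HNRNPU, TRA2B and ELAVL3 lie to the left of all others of the same gene.

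No unadjusted p was under 0.05 for the next 4 hnRNP genes. HNRNPC, which packages nascent transcripts and binds uridine tracts, had 571 and 490 normalised CPM in input, 573 and 691 in CyCoNP PD and, with the LacZ probes, 411 and 586. HNRNPK, a poly(C)-binding protein, had 760 and 1472 in input, 1063 and 720 in CyCoNP PD, against 506 and 393 in LacZ PD. HNRNPC overlapped between LacZ PD and the other groups, and HNRNPK was lowest in LacZ PD (log2 fold change against input -1.33 ± 0.66, edgeR adjusted p = 0.728). HNRNPH3, a smaller relative of HNRNPH1, had 391 and 349 in input, 494 and 299 in CyCoNP PD and, with the LacZ probes, 63.2 and 272. HNRNPM, a regulator of epithelial and mesenchymal splicing, had 428 and 165 in input, 245 and 156 in CyCoNP PD, against 411 and 257 in LacZ PD, and was the 1 hnRNP gene with both CyCoNP PD libraries below both of LacZ PD. Its direction in LacZ PD against input changed with the processing. Among all 22 tested hnRNP genes, 7 (31.8%, beside 49.4% of all genes) had a fitted log2 fold change above 0 in CyCoNP PD and 3 (13.6%, beside 32.4%) in LacZ PD against input. Their medians were -0.29 and -1.0, beside -0.01 and -0.68 over all genes tested.

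The 12 SR genes tested went both ways. In CyCoNP PD against input 7 (58.3%, beside 49.4% of all genes) had a fitted log2 fold change above 0 and 5 below, from -0.73 to 1.12. Their median was 0.10, beside -0.01 over all genes tested. In LacZ PD against input 5 were above 0, as were 32.4% of all genes, and 7 below. The median there was -0.21, beside -0.68 over all genes tested. SRSF3, the smallest SR protein, had 244 and 202 normalised CPM in input, 386 and 345 in CyCoNP PD and, with the LacZ probes, 348 and 300. All 4 of its pull-down libraries lay above input, by 0.71 ± 0.58 with CyCoNP probes (edgeR adjusted p = 1.00) and 0.53 ± 0.61 with LacZ probes (edgeR adjusted p = 0.798). SRSF9, which can repress exon use, had 196 and 267 in input, 358 and 435 in CyCoNP PD, against 221 and 250 in LacZ PD. SRSF5, an SR protein first described as insulin-induced, had 94.1 and 86.5 in input, 195 and 151 in CyCoNP PD and, with the LacZ probes, 63.2 and 92.9. For SRSF9 and SRSF5 both CyCoNP PD libraries were above the other 4, with log2 fold changes over input of 0.78 ± 0.59 and 0.94 ± 0.60 that did not pass the test (edgeR adjusted p = 1.00 for each).

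The remaining SR genes named here gave small or opposite differences. SRSF1, the archetypal SR protein, had 94.1 and 62.2 normalised CPM in input, 56.9 and 71.3 in CyCoNP PD, against 63.2 and 50.02 in LacZ PD. SRSF2, which binds exonic enhancers and marks nuclear speckles, had 107 and 72.8 in input, 60.9 and 46.8 in CyCoNP PD and, with the LacZ probes, 63.2 and 78.6. SRSF7, a zinc-knuckle SR protein, had 119 and 123 in input, 161 and 102 in CyCoNP PD, against 126 and 157 in LacZ PD. SRSF1 and SRSF7 overlapped between CyCoNP PD and input, and SRSF2 was lower in CyCoNP PD by -0.73 ± 0.61 on the log2 scale (edgeR adjusted p = 1.00). SRSF8, an intronless copy related to SRSF2, had 64 and 42 counts in input, 41 and 31 in CyCoNP PD and, with the LacZ probes, 0 and 2. Its pooled LacZ PD to input ratio was 0.179, with an exact 95% counting interval of 0.0214 to 0.663 (edgeR unadjusted p = 0.0159, adjusted p = 0.621).

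Of the PTB genes, PTBP1, the general repressor of neuronal exons, had 319 and 721 normalised CPM in input, 375 and 535 in CyCoNP PD, against 379 and 172 in LacZ PD. The input libraries spanned both CyCoNP PD libraries, with a log2 fold change of -0.19 ± 0.65 (edgeR adjusted p = 1.00). PTBP2, the neuronal paralogue, had 9 and 6 counts in input, 9 and 9 in CyCoNP PD and, with the LacZ probes, 0 and 0. At its pooled input level LacZ PD 2 would have held 1.39 counts, so its level in LacZ PD could not be measured at this depth. PTBP3, which is less studied, had 20 and 9 counts in input, 11 and 7 in CyCoNP PD, against 2 and 5 in LacZ PD. PTBP3, which carried the longest of the 4 probe matches shown, had 8.81 and 15.6 normalised CPM in CyCoNP PD beside 29.4 and 13.7 in input, so that these groups overlapped (log2 fold change -0.87 ± 0.78, edgeR adjusted p = 1.00). Its 63.2 and 35.7 normalised CPM in LacZ PD, from so few counts, lay above all other libraries (log2 fold change 1.02 ± 0.91 against input, edgeR adjusted p = 0.779, and -1.89 ± 0.94 for CyCoNP PD over LacZ PD, edgeR adjusted p = 0.871). These values ran from 0.46 to 1.68 and from -2.3 to -1.3 when each library was left out in turn.

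TRA2B, an SR-like activator of exons rich in GAA, had 179 and 149 normalised CPM in input, 120 and 145 in CyCoNP PD and, with the LacZ probes, 31.6 and 35.7, the last from 1 and 5 counts. LacZ PD lay below all other libraries, with a log2 fold change of -2.24 ± 0.75 against input (edgeR unadjusted p = 0.0100, adjusted p = 0.607) and of 1.93 ± 0.76 for CyCoNP PD over LacZ PD (edgeR unadjusted p = 0.0227, adjusted p = 0.871). Against input, CyCoNP PD was -0.31 ± 0.58 (edgeR adjusted p = 1.00). TRA2A, its paralogue, had 50.01 and 57.7 in input, 61.7 and 75.8 in CyCoNP PD, against 0 and 50.02 in LacZ PD.

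Among the ELAV genes, ELAVL3 (HuC), a neuronal mRNA-stabilising protein, was also lowest in LacZ PD. It had 310 and 187 normalised CPM in input, 193 and 138 in CyCoNP PD and, with the LacZ probes, 31.6 and 42.9, the last from 1 and 6 counts where the pooled input level would give 4.17 and 31.0. CyCoNP PD overlapped input (-0.58 ± 0.60, edgeR adjusted p = 1.00) and LacZ PD was at -2.65 ± 0.76 against input (edgeR unadjusted p = 0.00371, adjusted p = 0.525) and with CyCoNP PD 2.06 ± 0.76 above it (edgeR unadjusted p = 0.0167, adjusted p = 0.871). ELAVL4 (HuD), also neuronal, had 143 and 65.2 in input, 95.3 and 60.2 in CyCoNP PD, against 94.8 and 50.02 in LacZ PD. ELAVL1 (HuR), the widely expressed member, had 60.3 and 36.4 in input, 59.3 and 44.6 in CyCoNP PD and, with the LacZ probes, 94.8 and 42.9. For both genes each replicate 1 was above the replicate 2 of its group and the 3 groups overlapped.

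The 6 genes under the count minimum were ELAVL2, HNRNPUL2-BSCL2 and HNRNPCL1 to HNRNPCL4. ELAVL2 (HuB) had 7 and 0 counts in input, 1 and 1 in CyCoNP PD, against 0 and 0 in LacZ PD. HNRNPUL2-BSCL2, a read-through of neighbouring genes, had 2 and 1, 3 and 1, and 0 and 0 counts in the same order. The 4 HNRNPCL genes, close relatives of HNRNPC, had 0 counts in every library.

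As a share of the counts of all 48 genes, HNRNPA1 took 4.76% and 7.67% of these counts in input, 15.0% and 19.0% in CyCoNP PD and, with the LacZ probes, 14.5% and 23.7%, so each pull-down library lay above both input libraries. HNRNPH1 went the other way, with 11.0% and 4.61% in input and between 1.82% and 3.32% in the pull-downs. All hnRNP genes together stayed between 67.9% and 76.6%, and the SR genes took 13.9% and 13.5% in input and between 14.6% and 18.8% in the pull-downs. In LacZ PD 1 these shares rest on 165 counts.

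**Figure D4:**
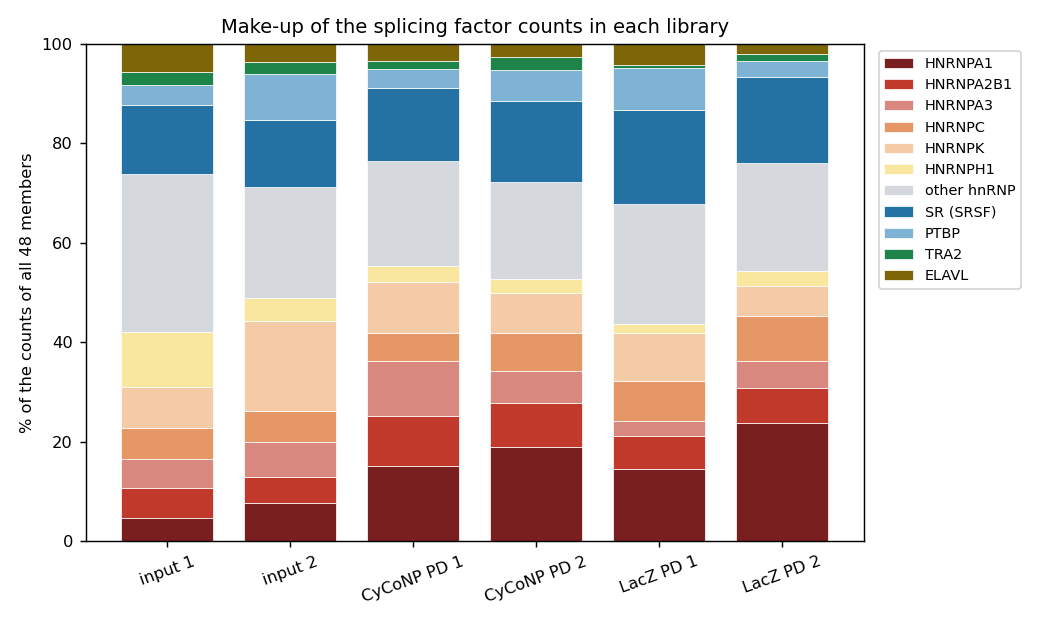
Share of the counts of all 48 genes (vertical axis, %) taken by 6 single hnRNP genes, the other hnRNP genes and the SR, PTB, TRA2 and ELAV genes in each of the 6 libraries. The HNRNPA1 segment is below 8% in both input libraries and between 14.5% and 23.7% in the 4 pull-down libraries.

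Counted by library rather than by test, 10 of the 42 genes had both CyCoNP PD libraries above both input libraries (17.2% of all genes, 23.8% of the 42) and 6 had both below (18.6% of all genes, 14.3% of the 42). In LacZ PD, 4 lay above input (5.75% of all genes, 9.52% of the 42) and 17 below (39.9% and 40.5%). Both CyCoNP PD libraries were above both LacZ PD libraries for 22 genes (52.4% of the 42), beside 35.9% of all genes, and below for 3 (7.14%), beside 4.25%. The 22 comprised 13 of 22 hnRNP, 5 of 12 SR, 1 of 3 PTB, 2 of 2 TRA2 and 1 of 3 ELAV genes.

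Replicate numbers carried differences of their own. Of the 42 genes, 8 differed by more than 1 on the log2 scale between the input libraries, 2 between the CyCoNP PD libraries and 22 between the LacZ PD libraries. In input 32 of the 42 were higher in replicate 1, and 7 genes were higher in replicate 1 and 5 lower in all 3 groups. These counts were not taken over all genes tested, so they cannot be read as particular to the 42. HNRNPF, singled out after its values were seen, which binds G-rich RNA like HNRNPH1, was the most uneven of the well-counted genes in input, with 352 and 88.0 normalised CPM. Of the 4 fibroblast markers, COL1A1 and COL1A2 were higher in replicate 1 of every group, whereas PDGFRB and DCN were higher in replicate 2 of CyCoNP PD. Their summed CPM was 467 and 29.0 in input, 240.7 and 35.0 in CyCoNP PD, against 265 and 14.3 in LacZ PD. Their part in the results of these genes was not tested, and an altered number of cells cannot be told apart from an altered amount of RNA per cell.

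Compared with other protein-coding genes tested, the 42 genes had longer 3′ untranslated regions and a lower GC content at the median. Their principal transcripts had a median length of 3608 bases, a 3′ untranslated region of 2148 bases and a GC content of 42.0%, beside 3362 bases, 1372 bases and 47.6% for 10482 protein-coding genes. Transcript length had a Spearman correlation of -0.115 with the fold change of CyCoNP PD over input across the 42 genes and of -0.292 across the protein-coding genes, which share the same libraries. The 3 single-exon members, HNRNPA0, HNRNPA1L2 and SRSF8, had a median log2 fold change of -2.81 in LacZ PD against input and the other members -0.68, where 211 single-exon protein-coding genes had -1.15 and the others -0.58. The value of -2.81 is that of SRSF8 alone. In LacZ PD the 3 genes had 1 and 1, 0 and 1, and 0 and 2 counts in the order named, too few for a firm value.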

How the data were processed

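The 6 Nanopore libraries were grouped by the titles of the samples into input, CyCoNP PD and LacZ PD, with 2 in each. The authors kept reads above a quality and length limit, aligned them to GRCh38 (minimap2 2.24-r1122 in the submitters' processing notes) and counted them per gene of Ensembl 99 by Bambu. The deposited counts are whole numbers without normalization. A table of CPM deposited by the authors holds the same values scaled to the library total and served only as a check. The counts of pseudogenes and multigene families depend on how Bambu divided reads between copies.

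Genes with at least 10 counts over the 6 libraries, 12565 in all and holding between 98.9% and 99.3% of the counts, entered the test in edgeR 4.0.16, run under R 4.3.3 (TMM, quasi-likelihood F test, all groups in 1 fit, Benjamini-Hochberg over all genes). The study's methods name DESeq2, run here as an alternative (1.42.0). Standard errors of log2 fold changes were computed from the F statistics, and the fit was tested on simulated data. Names, transcripts and coordinates came from GENCODE v44. Probe sequences came from the supplement of the study.

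The members and gene lists were chosen with earlier results of these data known. The genes named are, in each role group, those with the highest mean CPM (8 hnRNP, 6 SR, all others), those called in any of these fits or with an unadjusted p under 0.05, and those under the count minimum. CBX5, HNRNPL, HNRNPF, HNRNPA1L2 and HNRNPA1L3 were named after their values were seen. The results were recomputed with DESeq2, with DESeq2-type size factors or library size alone in edgeR, with no count filter or filterByExpr, in fits of only 2 groups, with a block for the replicate number, without each library in turn, and with HNRNPA1 summed with its copies.

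Same-numbered libraries deviated together across 12565 genes (correlations 0.449, 0.268 and 0.257 for the 3 pairs of groups), and input is a portion of the extract, so a fit with the replicate number as a block was run as an alternative, although no source says that a number marks a shared extract. Unless the block is named, printed values come from the fit without it. Replicates were separate libraries, with chi-square values of 18.4, 14.3 and 4.11 per degree of freedom. With 2 libraries per group, p-values measure only the spread between these libraries.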

Additional observations from a re-analysis of the deposited data

How the results depend on the processing

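With 2 libraries per group and 18870 counts in LacZ PD 1, 37 of the 48 genes had at most 3 counts in that library and 14 in LacZ PD 2, which limits what can be seen of them there. With the replicate number as a block, DESeq2 called 1 member enriched in CyCoNP PD against input (HNRNPA1, 1.58; 0.692% of all genes), and edgeR and DESeq2 each called 1 depleted in LacZ PD against input (HNRNPA0, -3.87 and -3.74; 0.796% and 0.565% of all genes). No other call of these genes was changed by the block or by any other alternative. The median log2 fold change of the members lay between -0.23 and 0.20 in CyCoNP PD against input when each library was left out, between -0.97 and -0.17 in LacZ PD against input, and between 0.52 and 1.19 in CyCoNP PD against LacZ PD. Scaled by library size alone, the LacZ PD median was -0.38 and that of CyCoNP PD against LacZ PD 0.18. Of 75 single results, 50 kept their direction under every alternative. The causes of the reversals were not tested.

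In CyCoNP PD against input, leaving out each library gave log2 fold changes of -0.72 to 0.23 for HNRNPK, -1.09 to 0.28 for HNRNPM, -0.29 to 0.42 for HNRNPH3, -0.22 to 0.41 for SRSF7, -0.55 to 0.036 for SRSF1, -0.67 to 0.52 for PTBP1, -0.62 to 0.84 for PTBP2, -0.86 to 0.26 for ELAVL4 and -0.20 to 0.52 for ELAVL1. In LacZ PD against input it gave -0.61 to 0.13 for HNRNPC, -0.55 to 0.97 for HNRNPM, -0.30 to 0.15 for SRSF9, -0.18 to 0.36 for SRSF7, -0.75 to 0.025 for SRSF5, -0.75 to 0.010 for SRSF2 and -0.19 to 0.73 for ELAVL1. In CyCoNP PD against LacZ PD it gave -0.37 to 0.32 for SRSF7, -0.52 to 0.030 for SRSF2, -0.023 to 0.66 for ELAVL4 and -0.60 to 0.30 for ELAVL1.

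Library size alone reversed HNRNPA2B1 (0.25), HNRNPC (0.41), SRSF5 (0.26) and SRSF2 (0.089) in LacZ PD against input, and HNRNPA1 (-0.026), HNRNPC (-0.23), SRSF3 (-0.43), SRSF1 (-0.24) and ELAVL4 (-0.28) in CyCoNP PD against LacZ PD. HNRNPC in LacZ PD against input was 0.0055 with DESeq2's size factors, 0.030 with DESeq2 and 0.0015 with filterByExpr. In the same comparison HNRNPM was -0.060 and SRSF9 -0.12 without a count filter, and -0.019 and -0.084 with only the 2 groups compared. With the replicate block in DESeq2, SRSF5 was 0.0083 in LacZ PD against input and ELAVL4 -0.019 in CyCoNP PD against LacZ PD.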

Other observations

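Other genes of the splicing machinery, 84 in a list of spliceosome proteins, SR protein kinases and further regulators, were described in the same way, and 79 of them reached the count minimum. edgeR without the replicate block called 0 of the 79 in any of the 3 comparisons. In CyCoNP PD against input 5 were higher at an unadjusted p under 0.05 (6.33%, beside 3.08% of all genes) and 1 was lower (1.27%, beside 2.32%). The 5 were RALY, an hnRNP-family protein (log2 fold change 2.16, edgeR adjusted p = 0.339), SF3B4 of the U2 particle (3.81, edgeR adjusted p = 0.399), PCBP1, a poly(C)-binding protein (2.2, edgeR adjusted p = 0.639), EWSR1, an RNA-binding protein of the FET family (2.02, edgeR adjusted p = 0.762), and SNRPA, the U1 A protein (1.79, edgeR adjusted p = 0.815). DESeq2 called RALY enriched (2.09, adjusted p = 0.0474). With the replicate number as a block edgeR called 4 of the 79 enriched in CyCoNP PD, RALY, SF3B4, SNRPA and EWSR1, with log2 fold changes of 2.17, 2.83, 1.89 and 1.88, where 1.53% of all genes were called, and DESeq2 with the block called RALY (2.10, adjusted p = 0.0246; 0.692% of all genes).

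In LacZ PD against input 11 of the 79 were lower at an unadjusted p under 0.05 (13.9%, beside 6.28% of all genes) and 2 were higher (2.53%, beside 0.74%), PCBP1 (2.83) and SNRPG, a core Sm protein (2.06). PCBP1 was thus higher with both probe sets at that unadjusted threshold and passed the adjusted test with neither (edgeR adjusted p = 0.639 and 0.607). The medians of the 79 genes were -0.19 in CyCoNP PD and -0.63 in LacZ PD against input. With the block edgeR called CELF1, a regulator of splicing and mRNA decay, depleted in LacZ PD against input (-4.17, adjusted p = 0.0245; 0.796% of all genes). In CyCoNP PD against LacZ PD 11 of the 79 were higher at an unadjusted p under 0.05 (13.9%, beside 4.74% of all genes) and 1, SNRPG, was lower (1.27%, beside 0.462%). In this comparison the block gave 1 gene, PCBP2, a poly(C)-binding protein, with edgeR (3.27, adjusted p = 0.00137; 0.724% of all genes) and with DESeq2 (3.21, adjusted p = 0.0497; 0.414% of all genes).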
